A study of Mus musculus with 6 samples.

Results

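The expression of 10 apolipoprotein genes was described in medullary thymic epithelial cells (mTECs) of Mbd1 wild type and knockout mice: Apoa1, Apoa2, Apoa4, Apoa5, Apob, Apoc1, Apoc2, Apoc3, Apoe and Apoh. Every probe that either symbol column of the authors' matrix assigned to one of these genes was taken, which gave 18 of 41174 probes, and 10 of the 18760 genes with a measured probe. The genes were picked, and 4 of them (Apoa1, Apoc3, Apoa4 and Apoa5, neighbours on chromosome 9) were set against the other 6, with the knockout against wild type values of this matrix in view. The differences between the genotypes are therefore given as descriptions, and counts of members that passed a fit over all probes are printed beside the share of all probes, with nothing read from them.

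Gene expression was measured on one-colour Agilent mouse arrays in cells sorted by flow cytometry from thymus. The Mbd1_WT group was MBD1 WT mice and the Mbd1_KO group MBD1 KO mice, all 30 days old, with no treatment given. The sort took cells positive for EPCAM and class II and negative for DAPI, CD45, CD11c and Ly51, and their RNA was amplified as a whole transcriptome. Each group holds 3 arrays, after the authors dropped 1 of 4 biological replicates per genotype on quality grounds. The labels and design text name neither the strain nor the deleted part of Mbd1, and do not say whether a replicate was 1 mouse or a pool. The MBD1 protein recognises CpG dinucleotides that carry DNA methylation. In such bulk samples, fewer cells that express a gene and less of its RNA per cell cannot be told apart.

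Apolipoproteins are the protein part of lipoprotein particles, which carry cholesterol and triglyceride in plasma and lymph. They are made mainly by hepatocytes and by enterocytes of the small intestine, where nuclear receptors such as HNF4A drive several of their genes. Medullary thymic epithelial cells transcribe many such tissue-restricted genes at low frequency and display the products to developing T cells.

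The upstream sequences of 4 members are shown because CpG is the dinucleotide MBD1 reads when methylated. Apoa1, Apoa4 and Apoa5 represent the chromosome 9 cluster and Apoe the members outside it. Each is the 250 bases before an annotated start, read 5′ to 3′ on the gene's strand from RefSeq, build GRCm38.p6, with every CpG in capitals. The Apoa1 window is chr9:46228380-46228629 on the plus strand, the Apoa4 window chr9:46240594-46240843 (plus), the Apoa5 window chr9:46268358-46268607 (plus) and the Apoe window chr7:19699189-19699438 (minus).
Apoa1: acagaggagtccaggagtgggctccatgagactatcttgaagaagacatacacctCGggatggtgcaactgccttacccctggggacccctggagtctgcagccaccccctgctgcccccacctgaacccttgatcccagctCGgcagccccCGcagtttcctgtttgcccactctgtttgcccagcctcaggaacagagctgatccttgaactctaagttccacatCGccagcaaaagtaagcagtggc
Apoa4: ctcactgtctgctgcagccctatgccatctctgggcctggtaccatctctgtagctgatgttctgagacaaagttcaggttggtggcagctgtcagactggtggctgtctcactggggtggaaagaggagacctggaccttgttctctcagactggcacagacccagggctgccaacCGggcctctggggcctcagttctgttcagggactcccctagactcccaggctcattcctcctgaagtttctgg
Apoa5: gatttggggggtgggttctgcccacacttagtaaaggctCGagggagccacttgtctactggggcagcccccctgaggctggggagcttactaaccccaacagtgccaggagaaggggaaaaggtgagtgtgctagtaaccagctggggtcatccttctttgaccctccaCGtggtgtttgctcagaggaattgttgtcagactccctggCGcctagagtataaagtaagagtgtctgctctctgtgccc
Apoe: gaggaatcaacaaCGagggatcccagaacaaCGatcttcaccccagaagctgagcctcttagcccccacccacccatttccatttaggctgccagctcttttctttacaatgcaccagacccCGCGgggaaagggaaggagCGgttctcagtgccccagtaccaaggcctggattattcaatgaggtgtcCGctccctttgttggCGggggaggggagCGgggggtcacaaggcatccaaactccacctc
The window of Apoa1 held 4 CpG, that of Apoa4 held 1, that of Apoa5 held 3 and that of Apoe held 8. Across all 32851 windows of the table the median was 6 CpG, with quartiles of 2 and 16. Windows were found for 8 of the 10 members, not for Apoc1 and Apoc3. The other members' first windows held 2 CpG (Apoa2), 3 (Apoh), 6 (Apoc2) and 7 (Apob). Both strands of the 12 member windows were searched for 2 motifs bound by liver and gut factors, which describe related elements. The HNF4 string CAAAGTCCA was in 0 member windows and in 0.384% of all windows. The nuclear receptor element known as direct repeat 1, searched as a fixed string with a free middle base, was in 0 and 0.0335%. Only exact matches to these strings were counted, and such matches were rare among all windows. The search therefore cannot show whether the 12 member windows hold sites that differ from the strings, and nothing is read from it. The methylation of these windows was not measured.

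The sample labels needed a check before any direction was read. The authors' matrix names its 6 columns WT_1 to WT_3 and KO_1 to KO_3, and all values below are taken by those names. In rank, 5 columns equalled a scanner file exactly, 0 of them the file of the same title and 4 a file titled with the other genotype. Mbd1 itself (probe A_51_P143224) read 8.60 to 9.0 in the WT columns and 5.60 to 5.64 in the KO columns on the log2 scale, at or near background in the latter, so the targeted gene follows the column names. With the scanner files grouped by their titles (processed intensity), the median difference of the 4 chromosome 9 genes was 0.49, with all genes at 0.12. That of the other members was 0.37, over the 5 that could be fitted, and Apoa1 was read by another probe. These signs are opposite to the matrix values below. Of the 5 matched columns, 4 carry the other genotype in the file title. A reversed sign is therefore largely built into this grouping, which is no separate test of direction. Every direction below thus depends on the column names. The defining genes of the sorted cells were high in every column: Epcam, Krt5, Krt14, Aire and Fezf2 lay at least 4.98 above background (log2). Background here is the 95th percentile of probes that no array detected, 5.47 to 5.62 by column. Between 73.5% and 81.3% of the probes per array were well above background, and 0 spots were saturated. All 18 apolipoprotein probes were well above background in all 6 scanner files. These files are not the same set as the 6 columns. Column KO_1 equalled no file (highest rank correlation 0.985), and the file titled KO replicate 2 equalled no column (highest 0.962). Detection and outlier marks here and below come from the files, so none is known for KO_1.

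Apoc3 had the lowest KO reading relative to WT among the members. It encodes the apolipoprotein that inhibits lipoprotein lipase and slows the clearance of triglyceride-rich particles. Its probe A_51_P310629 read 13.93, 14.34 and 14.06 in WT_1 to WT_3 and 13.00, 12.97 and 13.34 in KO_1 to KO_3, on the log2 scale. All 3 KO columns lay below all 3 WT columns, with a gap of 0.59 between the nearest ones. The means were 14.11 ± 0.21 and 13.10 ± 0.20 (SD, n = 3 each), a difference of -1.01 (SE 0.20, 95% interval -1.45 to -0.56), so the KO level was 49.8% of WT. The other Apoc3 probe, A_52_P574306, shares 50 bases with the first and is no separate measurement of the transcript. It read 12.86, 12.85 and 12.81 in the WT columns and 11.80, 11.62 and 12.55 in the KO columns. Here too the groups did not overlap, though KO_3 came within 0.26 of WT_3, and the difference was -0.85 (SE 0.25). The scanner software marked the spot of this second probe as an outlier on 4 of the 6 arrays.

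Apoa1, the main structural protein of high-density lipoprotein, read lower in the KO columns at both probes, without overlap at one of them. Probe A_52_P466648 read 13.22, 13.40 and 13.36 in the WT columns and 12.34, 12.96 and 12.70 in the KO columns. The 3 WT columns were close together and the KO columns were spread below them, with a gap of 0.26. The difference was -0.66 (SE 0.21, 95% interval -1.12 to -0.20), or 63.4% of WT. One of the 2 symbol columns alone names this probe Apoa1, and the scanner software marked its spot as an outlier on all 6 arrays. Probe A_51_P408082, printed as 10 spots per array, read 10.37, 11.11 and 10.69 in the WT columns and 10.22, 9.35 and 10.44 in the KO columns. Here KO_3 lay above WT_1, so the groups overlapped, and KO_2 was the lowest column by far although it was the highest KO column at the other probe. The difference was -0.72 (SE 0.30, 95% interval -1.37 to -0.07), and without KO_2 it was -0.40. The 10 spots of this probe varied by an SD of 0.176 to 0.269 within an array.

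Apoa4, an intestinal apolipoprotein of chylomicrons, also read lower in the KO columns, without overlap at one of its probes. A_51_P327491 read 14.44, 14.60 and 14.30 in the WT columns and 13.95, 13.37 and 14.18 in the KO columns. The groups did not overlap, but KO_3 lay within 0.11 of WT_3 and KO_2 stood well below the rest. The difference was -0.61 (SE 0.23, 95% interval -1.13 to -0.10), and without KO_2 it was -0.38. The second probe, A_51_P327496, read 10.31, 10.34 and 10.38 in the WT columns and 9.41, 10.63 and 9.60 in the KO columns. At this probe KO_2 was the highest of all columns, the reverse of its place at the first probe, so the probes disagree on that sample. The difference was -0.47 (SE 0.29, 95% interval -1.1 to 0.17). It was -0.84 without KO_2, -0.23 without KO_1 and -0.33 without KO_3. One of the 2 symbol columns alone assigns this probe to Apoa4.

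Apoa5, a liver apolipoprotein that promotes triglyceride hydrolysis, overlapped between the groups at both probes. Its probe A_51_P259930 read 6.81, 7.38 and 7.68 in the WT columns and 7.28, 7.20 and 6.72 in the KO columns. Both groups covered much the same range, and the difference was -0.23 (SE 0.26, 95% interval -0.79 to 0.34). It ran from -0.47 without WT_1 to -0.03 without WT_3, and was -0.05 without KO_3. The second probe, A_52_P292404, came within 0.51 of background and differed by -0.01 (SE 0.20). The matrix columns that could be matched equal, in rank, the median spot intensity before background subtraction; the effect of this on dim probes was not tested.

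**Figure D1:**
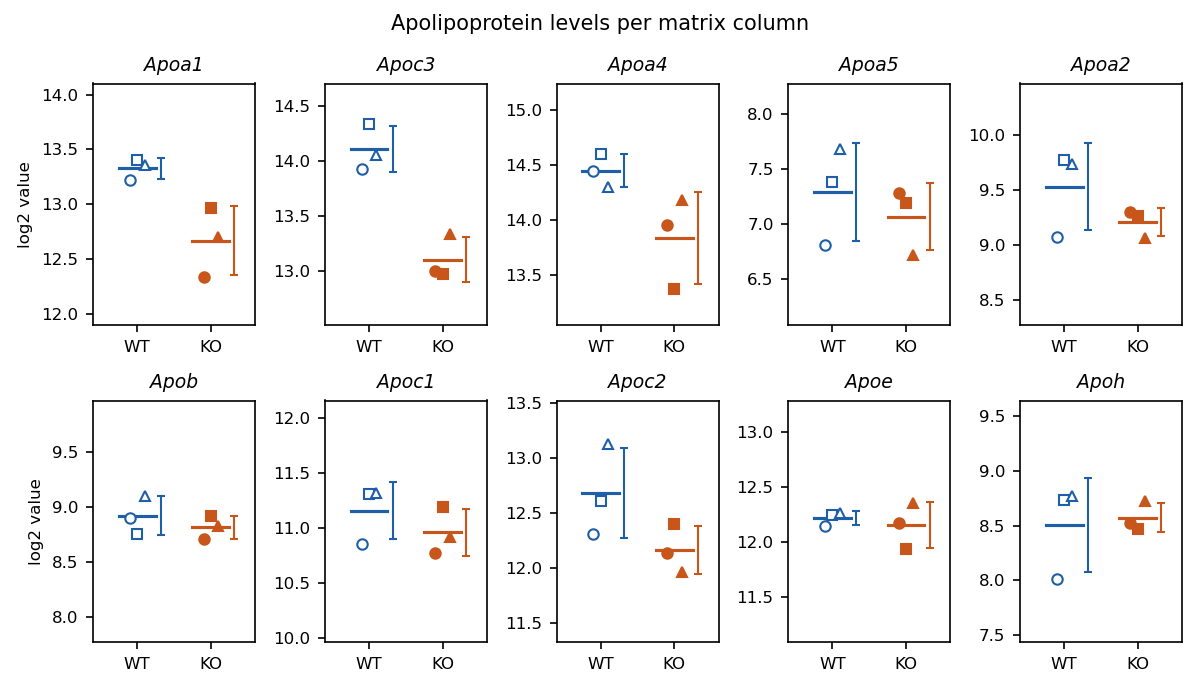
Log2 value of each apolipoprotein gene (its probe of highest mean) in the WT columns (open blue) and KO columns (filled orange); circle, square and triangle are columns 1, 2 and 3, the line is the mean and the bar the SD (n = 3). All panels span the same log2 range but start at different levels. Apoa1, Apoc3 and Apoa4 show no overlap between the groups, and the other 7 genes overlap.

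Among the 6 members outside the cluster, Apoc2 came nearest to a separation. It encodes the cofactor that activates lipoprotein lipase and lies on chromosome 7 with Apoe, Apoc1 and Apoc4. Apoc2 read 12.31, 12.60 and 13.12 in the WT columns and 12.13, 12.39 and 11.96 in the KO columns. KO_2 lay above WT_1, and WT_3 stood high. The difference was -0.52 (SE 0.24, 95% interval -1.04 to 0.01), and without WT_3 it was -0.29. The RefSeq span of another gene model, Gm44805, covers 100% of that of Apoc2, and whether its transcripts add to this probe was not tested. Apoc1, a small apolipoprotein that inhibits the transfer and uptake of lipoprotein lipids, read 10.85, 11.30 and 11.31 against 10.77, 11.19 and 10.92. Its groups overlapped, with a difference of -0.20 (SE 0.21) that ran from -0.35 without WT_1 to -0.10 without KO_1. Apoe, the ligand that takes remnant particles to the LDL receptor and is also made by macrophages, read 12.14, 12.25 and 12.26 against 12.17, 11.94 and 12.35. KO_3 was the highest and KO_2 the lowest of its 6 columns, and the difference was -0.06 (SE 0.19, 95% interval -0.49 to 0.36).

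The members on other chromosomes overlapped between the groups as well. Apoa2 (chromosome 1), the second protein of high-density lipoprotein, read 9.08, 9.78 and 9.74 in the WT columns and 9.30, 9.27 and 9.07 in the KO columns. WT_1 lay with the KO columns, and the difference was -0.32 (SE 0.23), which ran from -0.55 without WT_1 to -0.20 without WT_2. Apob (chromosome 12), the large scaffold protein of chylomicrons and very-low-density lipoprotein, had 5 probes. They differed by -0.32 to 0.00, and the one of highest mean, A_52_P441070, read 8.90, 8.75 and 9.10 against 8.71, 8.91 and 8.83, a difference of -0.10 (SE 0.19). Another, A_51_P380650, had the widest KO spread of the members, 7.0, 8.29 and 6.62 in the KO columns; its difference was -0.81 without KO_2 and 0.02 without KO_3. Apoh (chromosome 11), a plasma glycoprotein that binds phospholipids, read 8.01, 8.73 and 8.76 against 8.53, 8.47 and 8.72. It alone had a positive gene-level difference, 0.07 (SE 0.23), and WT_1 was its lowest column.

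**Figure D2:**
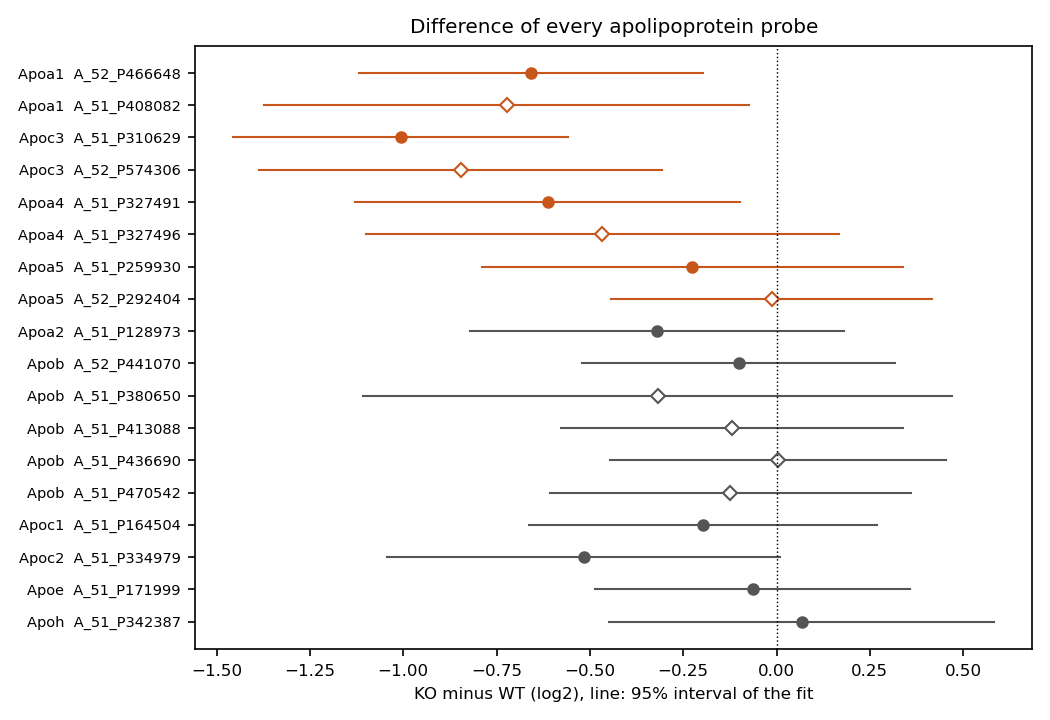
Difference of KO minus WT columns (log2) for all 18 apolipoprotein probes, with the 95% interval of the limma fit; orange is the chromosome 9 cluster, grey the other members, filled circles the probe of highest mean and open diamonds its further probes. The 8 cluster probes all lie at or below -0.01, and the other 10 lie between -0.52 and 0.07.

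Of the 18 apolipoprotein probes, 0 passed an adjusted p of 0.05 in limma over all 32678 measured probes, where 57 probes (0.174%) passed, 53 of them higher and 4 lower in the KO columns. At an unadjusted p of 0.05, 5 of the 18 passed, against 3.94% of all probes. All 8 cluster probes and 8 of the other 10 read below 0, where 51.6% of all probes did. The KO columns lay wholly below the WT columns at 4 of the 8 cluster probes and 0 of the other 10, where 4.05% of all probes did, and wholly above at 0 of the 18, where 4.06% did. By gene this was so for 3 of 4 cluster genes and 0 of 6 others, against 4.26% of all genes. The members were picked from this contrast, so nothing is read from these counts. The authors' deposited table likewise lists 0 member probes with a false discovery rate under 0.05, where 26 of all 41174 probes are listed.

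The cluster genes had a median difference of -0.64 (range -1.01 to -0.23), the other members -0.15 (-0.52 to 0.07), and all genes -0.01. The mean log2 value over the 4 cluster genes was 12.10, 12.43 and 12.35 in the WT columns and 11.64, 11.62 and 11.74 in the KO columns. These did not overlap. Over the other 6 members the means were 10.22, 10.57 and 10.72 in the WT columns and 10.27, 10.36 and 10.31 in the KO columns, which did. Within each column, the cluster mean minus the mean of the other members was 1.89, 1.86 and 1.63 in WT and 1.38, 1.26 and 1.43 in KO. The 3 KO values lay below the 3 WT values.

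The arrays lay on 2 slides, which bears on these differences. By the rank match, WT_1, KO_2 and KO_3 were on one slide and WT_2 and WT_3 on the other, and the slide of KO_1 is unknown. WT_1 was the lowest WT column for 8 of the 10 members, against 43.3% of all genes. Within the shared slide, which has a single WT column, the cluster median was -0.53 and that of the other members 0.05. Apoc3 read -0.78 (SE 0.31), Apoa4 -0.67 (SE 0.39) and Apoa1 -0.39 (SE 0.28) in that fit, while Apoa5 read 0.15, Apoc2 -0.13, Apoa2 0.09, Apoc1 0.20 and Apoh 0.58. The signs of Apoc3, Apoa1 and Apoa4 in that fit carry no information, since their KO columns all lie below every WT column. In it 0 probes passed (2129 at an unadjusted p of 0.05). The part of the slide in these differences was not tested further.

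Each genotype's mean was subtracted, which removes the contrast used in the choice. The cluster genes then all lay below that mean in WT_1, from -0.48 (Apoa5) to -0.002 (Apoa4), and all above it in WT_2. In WT_3 and each KO column the cluster genes had both signs. Their 6 pairs had Pearson correlations from -0.54 (Apoa1 with Apoa4) to 0.67 (Apoc3 with Apoa4), with a median of -0.02. The 15 pairs of the other members had a median of 0.54, and 11 were positive. Apoa2, Apoc1, Apoc2 and Apoh were all low in WT_1 and all but Apoc2 were high in WT_2 and WT_3. The 24 pairs across the groups had a median of 0.27, with the highest between Apoa5 and Apoa2 (0.90). These values rest on 6 columns that share arrays and slides and describe the columns alone.

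**Figure D3:**
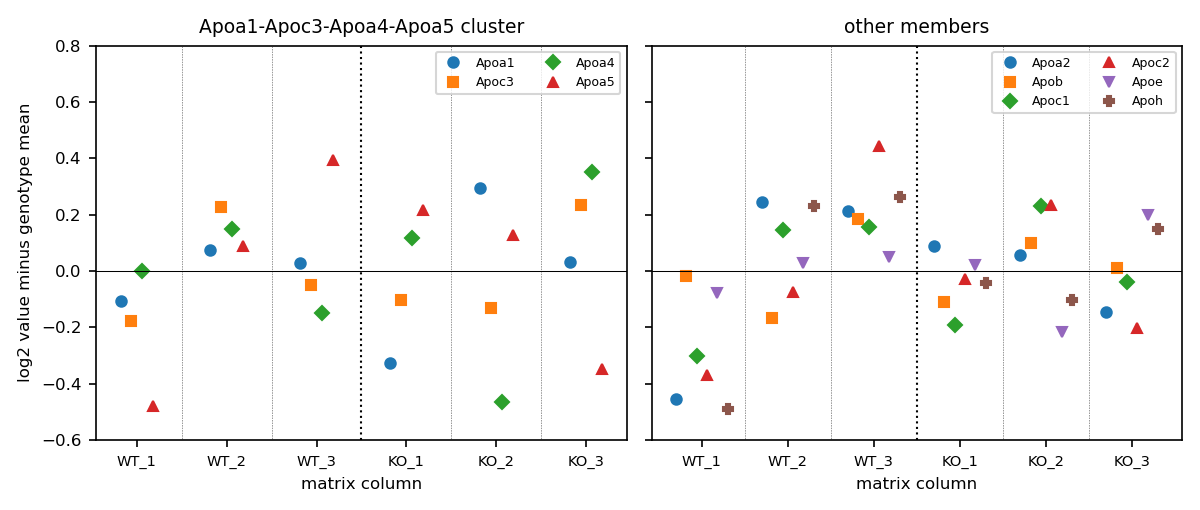
Log2 value minus the mean of its genotype for the 4 cluster genes (left) and the 6 other members (right), by matrix column. In WT_1, Apoa2, Apoc1, Apoc2 and Apoh lie together below 0, and the cluster genes also lie below 0, with Apoa4 close to it. In KO_1 to KO_3 the cluster genes lie on both sides of 0.

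Among the 8 genes most like the mean of the cluster after that subtraction were Lefty2, Ces1b, Olfr90, Olfr141, Sybu, Ppp2r5d and Nle1, with correlations of 0.994 to 0.998 over 6 columns. Ces1b, a liver carboxylesterase, read 6.47, 7.01 and 6.89 in the WT columns and 6.47, 6.46 and 6.66 in the KO columns. Its difference between genotypes was -0.26 (SE 0.21). Lefty2, a secreted antagonist of Nodal signalling, read 9.88 to 10.81 in WT and 10.09 to 10.47 in KO. The 2 olfactory receptors lay near background, and WT_1 was the lowest WT column for all 8 genes. In all, 190 of 18756 genes correlated over 0.95 with the cluster mean; the count was 323 to 975 when a column was left out and 131 by Spearman's correlation. Among the other members Apoh reached 0.97, Apoa2 0.78 and Apob -0.14.

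The genes around the cluster gave both signs. RefSeq places Sik3 before Apoa1 and Zpr1 after Apoa5 on chromosome 9. Sik3, a salt-inducible kinase, read -0.27 (SE 0.30), with KO_3 alone low, and Zpr1, a zinc finger protein, -0.03 (SE 0.21). Of 11 measured neighbours, 0 passed (0.101% of all genes did) and the median was -0.03. None of the 11 had KO columns wholly below WT (4.26% of all genes) or above it (3.97%). The 3 of smallest p were Tagln, a smooth muscle actin-binding protein, at -0.39, the adhesion molecule Cadm1 at 0.25 and the protease Bace1 at -0.24. Around Apoe on chromosome 7, 8 of 13 neighbours were positive, with a median of 0.07. There Clasrp, a splicing factor, read 0.89 (SE 0.27, limma adjusted p = 0.702), Zfp296 0.55 and Relb, an NF-kB subunit needed for mTEC development, 0.32. These 3 of the 13 had all KO columns above all WT columns (3.97% of all genes did), while Apoc4, which lies between Apoc2 and Apoc1, read 0.11 (SE 0.23).

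The rest of the lipoprotein pathway and the marker lists comprised 217 tested genes, of which 0 passed over all genes in limma, where 0.101% of genes did. At an unadjusted p of 0.05 in limma, 28 of them passed (12.9%, against 4.12% of all genes). They included 9 of 34 gut and liver genes and 6 of 17 thymocyte and B cell markers, with 0 to 3 in each other list. The lists were chosen with earlier results of these data known, so nothing is read from this share or from the list counts below. Of 23 further apolipoproteins and related genes, 13 were positive and the median was 0.05. Saa3, an acute-phase apolipoprotein of high-density lipoprotein, read 12.45, 13.05 and 12.56 in WT and 12.32, 12.05 and 12.15 in KO, a difference of -0.51 (SE 0.22). Apol8 read -0.63 and the paraoxonase Pon1 0.43, both with overlap and near background in at least 1 column.

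Receptors that bind these proteins were mostly negative, 13 of 19, with a median of -0.17. Lrp1b, a large member of the LDL receptor family, read 7.91, 8.37 and 7.75 in the WT columns and 6.87, 7.14 and 6.93 in the KO columns. Its groups lay well apart, with a difference of -1.03 (SE 0.22, limma adjusted p = 0.211). Vldlr, the very-low-density lipoprotein receptor, read -0.56 (SE 0.26), and Lrp2, the endocytic receptor megalin, 0.46 (SE 0.20). For assembly, secretion and lipolysis, 15 of 32 genes were positive and the median was -0.04. Soat2, which esterifies cholesterol in gut and liver, read 9.17, 9.41 and 9.21 in WT and 9.11, 8.38 and 8.78 in KO, a difference of -0.51 (SE 0.22). The groups did not overlap, as was so for Lipg, endothelial lipase (-0.61, near background). In this list 6 of 32 genes had KO columns wholly below WT (4.26% of all genes did) and 1 wholly above (3.97%).

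The transcription factors known to act on apolipoprotein genes had a median of -0.10, with 19 of 30 negative. Hnf4a read 7.48, 7.51 and 7.49 in the WT columns and 7.72, 7.14 and 7.59 in the KO columns, a difference of -0.01 (SE 0.21). Its relative Hnf4g, expressed in the intestine, read -0.37 (SE 0.20), with overlapping groups. Ppara, the fatty acid receptor of liver, read -0.66 (SE 0.34), with KO_3 alone far below the others, and Foxa1 -0.32 (SE 0.19).

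Other enterocyte and hepatocyte genes gave both signs. Of 34 measured, 19 were negative (51.3% of all genes were) and the median was -0.08, but 10 had KO columns wholly below WT (4.26% of all genes did) and 2 wholly above (3.97%). Sis, the intestinal sucrase-isomaltase, read 7.90, 7.24 and 7.46 in the WT columns and 6.34, 6.57 and 6.55 in the KO columns. The groups lay apart, with a difference of -1.04 (SE 0.22, limma adjusted p = 0.207). Reg1, a secreted lectin of pancreas and gut, averaged 11.77 ± 0.14 in WT and 10.87 ± 0.18 in KO (SD, n = 3), a difference of -0.90 (SE 0.20, limma adjusted p = 0.241). Reg3b, an antimicrobial lectin of the gut, read -1.15 (SE 0.28, limma adjusted p = 0.351), again without overlap.

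**Figure D4:**
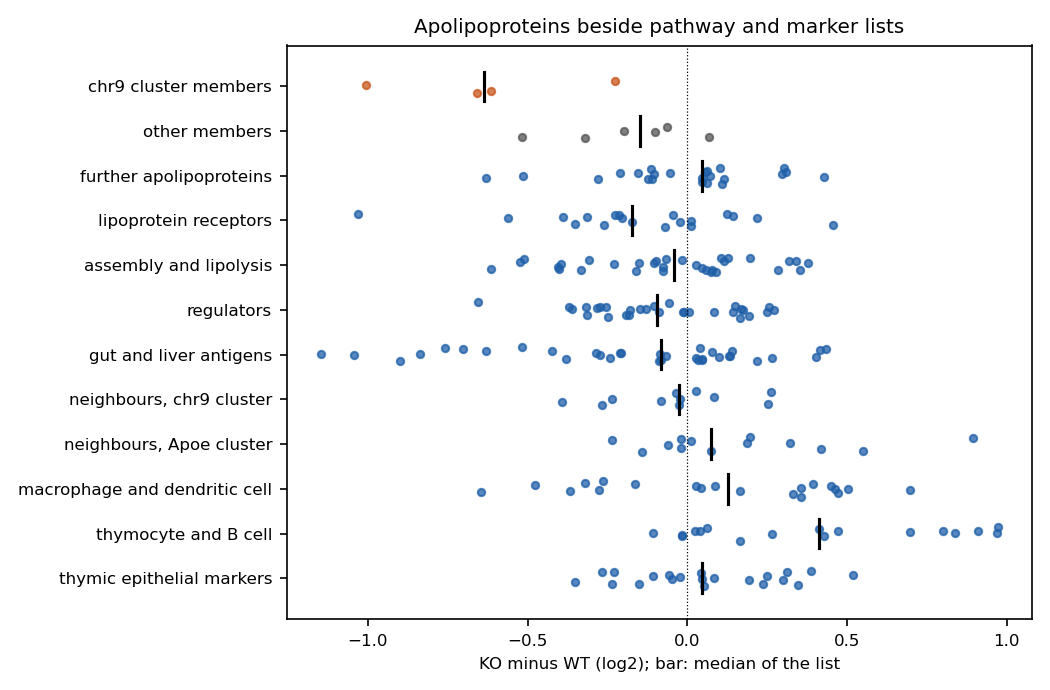
Difference of KO minus WT columns (log2) for each measured gene of the apolipoprotein members (cluster in orange, others in grey) and of the pathway and marker lists (blue); the bar is the median of a list and points are spread vertically for legibility. The medians are -0.64 for the cluster, -0.15 for the other members and 0.41 for the thymocyte and B cell markers.

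Markers of cells that the sort should have removed were read in the same columns. Of 17 thymocyte and B cell markers, 14 were positive, the median was 0.41, and 7 had KO columns wholly above WT (3.97% of all genes did). Their mean log2 value was 7.75 to 8.09 in the WT columns and 8.27 to 8.60 in the KO columns. The T cell coreceptor chain Cd8b1 read 0.97 (SE 0.21, limma adjusted p = 0.238), the terminal transferase Dntt 0.91 and the lymphocyte GTPase Rhoh 0.97. Rag2 was not measured. Of 20 macrophage and dendritic cell markers, 13 were positive with a median of 0.13, and their mean was 8.48 to 8.57 in WT and 8.54 to 8.77 in KO. The adaptor Tyrobp read 0.70, Itgax, which encodes CD11c, 0.47 and near background, and Aif1 0.45, while Clec9a and Siglech were not measured. Apoe, which macrophages also make, read -0.06 in the same columns. The 17 markers of medullary epithelium and the sort had a median of 0.04 and a range of -0.35 to 0.35, and 9 were positive. Those of smallest p were Ciita, the regulator of class II genes, at 0.35 and Cd40 at 0.31. Among the negative ones, Cd80 read -0.35, Krt14 -0.24 and Epcam -0.23. The 4 markers of cortical epithelium were Prss16, a thymic protease, at 0.52, Psmb11 at 0.39, Enpep, which encodes Ly51, at 0.05 and Ly75 at -0.27. The part of these markers in the apolipoprotein readings was not tested.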

How the data were processed

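The authors deposited a matrix of log2 values per probe in 6 columns, whose nearly equal quartiles (medians 7.13 to 7.14) and equal maximum are as after a normalization between arrays; its method and the genome build were not given in the sources used here. It also holds the authors' log2 ratio, linear fold, p-values and a log-odds score. From these, the deposited false discovery rates alone were printed, and the deposited fold and score were not used. The deposited scanner files give intensity per spot from Agilent Feature Extraction; the submitters' processing notes give version 10.6 and the headers 10.7.3.1. Per the file headers, the detection and outlier entries are 0 or 1 flags.

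Probes detected well above background on 3 or more of the 6 arrays, whatever their titles, were kept (32678 of 41174). Probes were named through Entrez ID (33380), accession (50) or the file's symbol (2203), and 5541 had no name. For each gene the kept probe with the highest mean was used. The KO columns were compared with the WT columns with limma 3.58.1 (lmFit, eBayes; R 4.3.3), without covariates, with Benjamini-Hochberg adjustment over all probes or genes (threshold 0.05). The fit was tested on simulated data. Precision is limited by the number of arrays. The authors call the replicates biological, and if they nonetheless came from the same animals the p-values cover technical spread alone. If each was a pool of different mice, the p-values cover the spread between pools. Outlier spots were kept, since the matrix holds them.

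The members and lists were chosen with earlier results of these data known. Named genes were every member, Mbd1, the 8 most like the cluster, Hnf4a and Hnf4g, and per list those that passed, otherwise the 3 of smallest p; some genes and a motif that the rules name are not reported here. Sik3, Zpr1 and Apoc4 were added for their position, and Epcam, Krt5, Krt14, Aire and Fezf2 for the check of the sort. Alternatives were scanner intensity grouped by titles (processed intensity less its 75th percentile, or normexp with offset 50), other filters, moderation and probe summaries, the replicate number or slide as a block, and each column left out. The files hold no mean spot intensity, so normexp used the median. This alternative and the one that drops outlier spots from detection were chosen after seeing the data.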

Additional observations from a re-analysis of the deposited data

How the results depend on the processing

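The cluster median of -0.64 stayed between -0.73 and -0.58 when a column was left out, and that of the other members, -0.15, between -0.26 and -0.08. By scanner titles the cluster median was 0.49 with processed intensity and 0.26 with normexp, and that of the other members 0.37 and 0.26. All genes stood at 0.12 and 0.02. The titles put WT_1, KO_2 and KO_3 against WT_2, WT_3 and an unmatched file, so these reversed signs are no separate test of direction. Within one slide the medians were -0.53 and 0.0466. Apoc3 stayed between -1.13 and -0.89 when a column was left out, Apoa1 between -0.80 and -0.49 and Apoa4 between -0.79 and -0.38, while Apoe (-0.16 to 0.04) and Apoh (-0.18 to 0.20) changed sign. For Apoc3, Apoa1 and Apoa4 every KO column lay below every WT column at the probe used. Leaving out a column therefore could not change their sign or that of the cluster median, and nothing is read from those signs. With outlier spots not counted as detected, Apoa1 was represented by its 10-spot probe, and the cluster median was -0.67.

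The count of probes that passed, 57, was 0 by titles with processed intensity, 0 by titles with normexp, 26 without a filter on dim probes and 0 with the slide as a block. It ranged from 27 (without WT_2) to 81 (without KO_1) when a column was left out, and was 34 without WT_3. The replicate block gave 95 probes; samples of the same number deviated with correlations of -0.288, -0.185 and -0.333, so the numbers do not pair them. Of the member probes, 0 passed in limma under any setting run, as did 0 of the 217 pathway and marker genes. The slide comparison rests on 1 WT column. By titles with processed intensity Apoc1 could not be fitted, so the median of the other members covered 5 genes. Apoa1 was read there by its 10-spot probe. The title grouping mixes the genotypes of the column names, so its counts are no separate test of the calls.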
